A study of Salmo salar with 9 samples.

Results

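Variation among Atlantic salmon on the same diet was described from the head kidney RNA of 9 fish, 3 on each of 3 diets. Each contig of the de novo transcriptome reference was followed in every fish, and its value was taken as the deviation from the mean of that fish's diet. Contigs were members if they had 10 or more counts in at least 3 fish, and 63906 of the 87600 contigs did. Of these, 40954 had 10 or more counts in all 9 fish. SW1 fish received a diet with the brown seaweed Laminaria digitata, SW2 fish one with the seaweed blend Oceanfeed, and FMC fish a fishmeal-based control diet, each for 42 days. All 9 fish were injected with bacterial lipopolysaccharide (LPS) before sampling, and no fish without that challenge was among the samples. One fish came from each tank, so a difference between fish of a diet and a difference between tanks cannot be told apart.

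The head kidney is the forward part of the fish kidney. It is the main blood-forming organ of salmon, with precursors of red and white blood cells, it holds B cells that secrete antibody, and it also contains the interrenal cells that make cortisol and the chromaffin cells that make catecholamines. A piece of it is therefore a mixture, and in RNA from whole tissue a change in the number of cells of a type and a change in the RNA of each cell cannot be told apart. LPS is recognised as a sign of bacteria and is known to induce acute phase proteins, chemokines and other inflammatory genes. Secretory and dividing cells draw on chaperones of the endoplasmic reticulum (ER), ribosome assembly in the nucleolus, aminoacyl-tRNA ligases and the proteasome.

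Defining markers of the organ were read in every library. Matched contigs of neutrophil granule proteins summed to between 13817 and 20645 CPM (counts scaled to the library size) per fish, B cell and immunoglobulin contigs to between 4968 and 13435 CPM, macrophage contigs to between 2155 and 3816 CPM, and interrenal steroid synthesis contigs to between 635 and 4816 CPM. Contigs matched to skeletal muscle by name summed to between 321 and 457 CPM and those of exocrine pancreas to between 48.4 and 73.6 CPM. The muscle sum was 243 to 343 CPM without contig 9336, matched only because its name mentions skeletal muscle growth. Libraries held between 8259299 and 12228633 counts. SW1 fish 1 had the largest library and FMC fish 2 the smallest, and these are also the 2 fish that stood apart from the others in the results. Replicate libraries of a diet differed by far more than sampling noise, with a chi-square per degree of freedom of 5.38 to 34.4 between pairs, so none was counted as a repeat of another. The largest values, 32.7 and 34.4, were those of SW2 fish 1, in which contig 80 alone took 16.5% of counts. The smallest was that of SW2 fish 2 and 3.

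The spread of a contig was measured as its residual standard deviation (SD), the SD of log2 CPM around the diet means with 6 degrees of freedom. Its median was 0.43, which means that 1 SD corresponded to a 1.35-fold difference between fish on the same diet. The middle 50% of contigs lay between 0.31 and 0.58, 95% of contigs lay under 0.88, and 99% under 1.19. In 1663 contigs (2.60%) the SD was over 1, and 474 of these had 10 or more counts in all 9 fish. An SD over 2 was found in 89 contigs, of which 6 were read at that level in all 9 fish. Spread beyond what the counting of reads alone gives, tested by the deviance of a Poisson model with Benjamini-Hochberg adjustment over all contigs, was found in 40778 contigs (63.8%).

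The SD depended on abundance. The lowest of 20 equal abundance bins, with a median of 0.759 CPM, had a median SD of 0.67, of which counting alone would give 0.53. The highest bin, with a median of 78.8 CPM, had a median SD of 0.35 where counting alone would give 0.05. Spread beyond counting noise was found in 48.6% of contigs in the lowest bin and in 99.5% in the highest. The filter needed a minimum count in only some of the fish, and whether this raised the spread of the lowest bin was not tested. In bins 2 and 3, counted from the lowest, the share was smaller, at 34.6% and 34.4%, so it did not rise steadily with abundance. Functions were therefore compared by their excess SD, the SD of a contig minus the median SD of contigs in the same bin, with the SD itself given for single contigs.

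**Figure D1:**
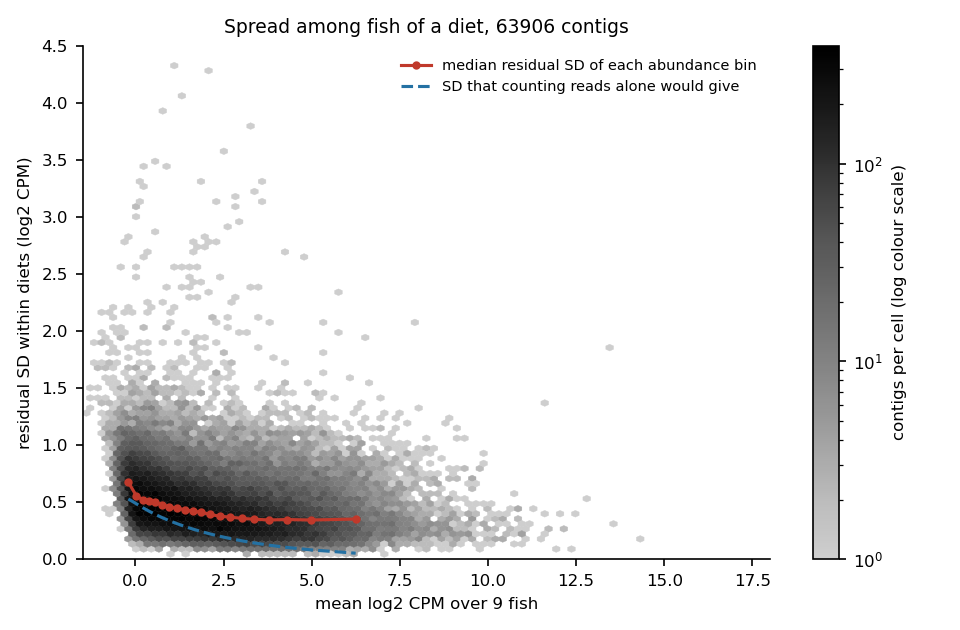
Residual SD of log2 CPM among fish on the same diet (y axis) against mean log2 CPM over 9 fish (x axis) for 63906 contigs, with darker cells holding more contigs, a solid line for the median of each of 20 abundance bins and a dashed line for the SD that counting alone would give. The solid line runs down to 0.35 in the most abundant bin and the dashed line to 0.05. The dashed line leaves out the prior count and is too high at low counts.

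How far each fish lay from the mean of its diet was summarised as the root mean square of its residuals over all contigs. SW1 fish 1, 2 and 3 lay 0.538, 0.517 and 0.352 log2 units from their mean, SW2 fish 0.327, 0.330 and 0.350, and FMC fish 0.457, 0.554 and 0.361. All SW2 fish lay closer to their diet mean than any SW1 or FMC fish. The mean distance was 0.336 in SW2 fish and 0.458 in FMC fish, a difference of -0.122 with p = 0.1 in a two-sided exact permutation test, which is the smallest p that 3 against 3 fish allow (adjusted p = 0.2 over 4 comparisons). SW2 differed from SW1, with a mean of 0.469, by -0.133 with the same p and adjusted p. SW1 differed from FMC by 0.0115 (exact permutation p = 1). Both seaweed diets together had a mean of 0.402 and differed from FMC by -0.0552 (exact permutation p = 0.44, smallest possible 0.0119, adjusted p = 0.587). The difference between SW2 and FMC was close to 0 without FMC fish 2, at 0.0310 as measured and -0.0194 with distances scaled for the 2 fish left in FMC, since fish lie closer to a mean of 2 than to a mean of 3. The difference between SW2 and SW1 was -0.0165 as measured without SW1 fish 1, a value not scaled for the 2 fish left in SW1. Over 22 alternatives, scaled and unscaled, it ran from -0.296 to -0.0165, below 0 in each case.

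The same residuals were also summarised contig by contig. All contigs were read in the same fish, so counts of contigs add no separate evidence to the distances and carry no p. The median SD over contigs was 0.43 within SW1, 0.27 within SW2 and 0.40 within FMC, and SW2 had the smallest SD of the 3 diets for 33654 contigs (52.7%), against 14717 (23.03%) for SW1 and 15535 (24.3%) for FMC. SW1 fish held 40.9% of all squared residuals, SW2 fish 20.3% and FMC fish 38.8%.

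Differences between diets were tested against the spread between fish and not against counting noise, so the counts of contigs from these tests are not on the same scale. An edgeR quasi-likelihood F test of any difference between the 3 diets called 1 contig (0.00156%) at an adjusted p under 0.05, and 2705 contigs (4.23%) had an unadjusted p under 0.05. DESeq2 called 67 contigs by its likelihood ratio test. The contig called by edgeR, contig 45761, matched an unnamed trout transcript. Chosen after its values were seen, it had 275, 164 and 189 counts in SW1 fish, 10, 10 and 8 in SW2 fish and 6, 14 and 15 in FMC fish (edgeR adjusted p = 0.00141). Its SW1 counts did not overlap with those of the other diets. These p-values set differences between diets against the spread between these fish, which with 1 fish per tank is also a spread between tanks.

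The largest part of the spread lay along a direction shared by SW1 fish 1 and FMC fish 2. Principal components of the residuals of contigs with 10 or more counts in all 9 fish put 51.9% of the residual variance on the first component and 19.7% on the second. SW1 fish 1 and FMC fish 2 scored 0.567 and 0.560 on the first component, the other SW1 and FMC fish scored between -0.370 and -0.191, and SW2 fish scored -0.086, -0.017 and 0.103. Over all contigs the residuals of SW1 fish 1 and FMC fish 2 correlated with r = 0.58. The second component set SW1 fish 2 (0.617) and FMC fish 2 (0.422) against SW1 fish 1 (-0.414) and FMC fish 1 (-0.456). With SW1 fish 1 and FMC fish 2 both left out, the first component held 34.4% of the remaining residual variance.

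**Figure D2:**
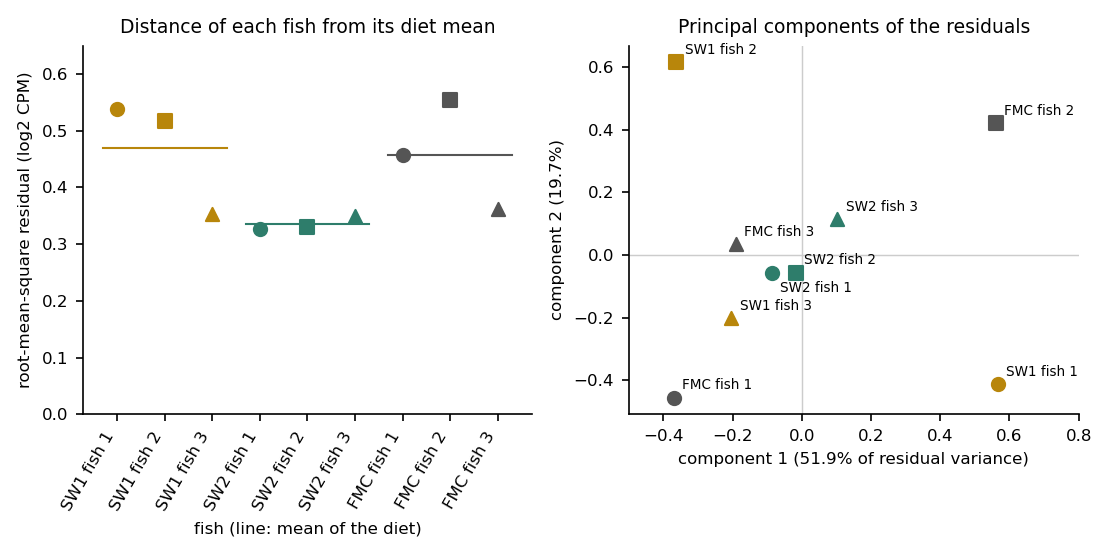
Left, distance of each of the 9 fish from its diet mean (root mean square residual, log2 CPM), with a line for the mean of the diet; right, scores of the same fish on the first (x axis) and second (y axis) principal components of the residuals, with colour for the diet and 1 point per fish. SW2 fish lie between 0.327 and 0.350 log2 units from their mean, and SW1 fish 1 and FMC fish 2 share the high end of the first component.

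Of the gene lists, ER folding, proteasome, tRNA ligases and cell cycle followed this direction most closely. Their median r with the first component was -0.94, -0.93, -0.91 and -0.86. Ribosomal proteins followed it less, with a median r of -0.42 and 54 of 206 contigs lowest of their diet in both fish (22.1% of all contigs were). For splicing factors these values were -0.64 and 224 of 437. Folding factors of the ER were low in SW1 fish 1 and FMC fish 2, with median residuals of -0.80 and -0.84 log2 units. In the remaining fish the median residual ran from -0.21 in SW2 fish 3 to 0.71 in FMC fish 1. Of 81 ER folding contigs, 73 had a larger SD than contigs of like abundance (50% of all contigs did) and 65 were lowest of their diet in both SW1 fish 1 and FMC fish 2, where 22.1% of all contigs were. In 25 contigs the SD was in the top 5% of like abundance (4.98% of all contigs). Their median excess SD was 0.32 and their SDs ran from 0.09 to 1.26. In 75 of the 81 (92.6%), the spread went beyond counting noise, close to the 94.3% and 97.7% of all contigs in the abundance bins on either side of the median of the list, 28.3 CPM. With both fish left out the median excess SD was 0.06.

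BiP, the HSP70 chaperone of the ER (78 kDa glucose-regulated protein), shows the pattern. It had 24.3, 119.9 and 107 CPM in SW1 fish 1, 2 and 3, 118, 123.2 and 92.0 CPM in SW2 fish, and 171, 19.7 and 99.3 CPM in FMC fish (SD 1.20). SW1 fish 1 and FMC fish 2 had the lowest values, and the other 7 fish overlapped across diets. HYOU1, an ER chaperone that helps BiP exchange its nucleotide, had 38.1, 221 and 191 CPM in SW1, 200.6, 166 and 136 CPM in SW2, and 238, 31.4 and 177 CPM in FMC fish (SD 1.23). DNAJB11, a BiP co-chaperone, had the largest SD of the list at 1.26, with 5.04 CPM in SW1 fish 1 and 4.76 CPM in FMC fish 2 against 20.5 to 40.02 CPM in the others. Not every ER protein varied. TMX3, a transmembrane protein disulfide isomerase, lay between 66.4 and 78.03 CPM in the 9 fish (SD 0.09).

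Nucleophosmin, fibrillarin and ornithine decarboxylase were low in the same fish. NPM1, nucleophosmin, which takes part in ribosome assembly, had 118, 852 and 549 CPM in SW1 fish, 605, 547 and 419 CPM in SW2 fish, and 692, 122 and 576 CPM in FMC fish (SD 1.18). Fibrillarin, which methylates ribosomal RNA, had 70.3, 333 and 252 CPM in SW1, 274, 252 and 212 CPM in SW2, and 324, 66.6 and 264 CPM in FMC fish (SD 1.00). In both genes SW1 fish 1 and FMC fish 2 fell outside the range of the other 7 fish. ODC1, ornithine decarboxylase, the first enzyme of polyamine synthesis, went further, with 3.90, 66.6 and 58.2 CPM in SW1, 47.0, 49.6 and 34.7 CPM in SW2, and 61.9, 9.99 and 41.4 CPM in FMC fish (SD 1.54).

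Aminoacyl-tRNA ligases, which charge tRNAs with amino acids, had a median excess SD of 0.14, and 57 of 86 contigs were lowest of their diet in both fish. A contig of the arginine ligase RARS (contig 24249) had 3.62, 21.2 and 18.9 CPM in SW1, 16.97, 16.8 and 11.5 CPM in SW2, and 23.4, 2.85 and 19.7 CPM in FMC fish (SD 1.25). The list was uneven, also within a gene. A contig of the threonine ligase TARS (contig 22540) stayed between 11.8 and 16.5 CPM (SD 0.16), while the more abundant contig 2318 of the same name, at a mean of 189.7 CPM, had an SD of 0.90. Without FMC fish 2 the median excess SD of the list was 0.08, and without both fish 0.01. Among translation factors the median excess SD was only 0.03, but a contig of EIF2S1, the alpha subunit of initiation factor eIF2, had an SD of 1.36, with 1.56 CPM in SW1 fish 1 and 1.90 CPM in FMC fish 2 against 5.52 to 17.9 CPM in the others.

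Proteasome contigs varied in the same fish. The list of core and regulatory subunits had a median excess SD of 0.20, with 124 of 145 contigs above like abundance and 109 lowest of their diet in both SW1 fish 1 and FMC fish 2. PSMA7, an alpha ring subunit (contig 7859), had 26.5, 168 and 98.2 CPM in SW1, 105, 101 and 80.2 CPM in SW2, and 111, 40.4 and 104 CPM in FMC fish (SD 0.93). SW1 fish 2 was the highest fish and SW1 fish 1 the lowest. A contig of the ubiquitin receptor subunit PSMD4, at 4.97 to 8.09 CPM, had the smallest SD of the list (0.19). With both low fish left out, the median excess SD of the list was 0.03.

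Chaperones outside the ER and the respiratory chain followed, with smaller excess. Heat shock proteins and chaperones had a median excess SD of 0.11, and 69 of 92 contigs were above like abundance. HSPA4, an HSP70 family protein of the cytosol, had 11.3, 67.2 and 61.3 CPM in SW1, 52.7, 55.9 and 54.3 CPM in SW2, and 73.9, 9.99 and 50.5 CPM in FMC fish (SD 1.21). Its SW2 values were the closest together of the 3 diets. Nuclear genes of the respiratory chain also had a median excess SD of 0.11 (0.105), with 117 of 155 contigs above like abundance and 103 lowest in both fish. Without SW1 fish 1 the respiratory chain median was 0.02. With both fish left out, the medians were -0.01 for chaperones and -0.02 for the respiratory chain.

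Genes of the cell cycle and DNA replication were low in the same 2 fish. Of 190 contigs, 150 had a larger SD than contigs of like abundance, 139 were lowest in both SW1 fish 1 and FMC fish 2, and the median excess SD was 0.14. MCM2, part of the helicase that opens DNA for replication, had 3.40, 10.04 and 11.7 CPM in SW1, 13.8, 11.9 and 10.8 CPM in SW2, and 20.7, 2.62 and 13.5 CPM in FMC fish (SD 1.04). Without both fish the median excess SD of the list was 0.00.

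When the 1000 contigs of largest excess SD among those read in all 9 fish were grouped by the correlation of their residuals, 882 fell into 5 groups of 15 or more contigs. The correlations inside a group follow from how the groups were made and are given as a description. The largest group held 550 contigs, 386 of them with a protein name, and its pairs had a median r of 0.94. Its mean residual was -1.43, 0.91 and 0.52 log2 units in SW1 fish 1, 2 and 3, 0.15, 0.06 and -0.21 in SW2 fish, and 0.82, -1.32 and 0.50 in FMC fish. It held 19 of the 81 ER folding contigs, 17 of 190 of the cell cycle, 14 of 92 chaperones, 12 of 86 tRNA ligases and 6 of 145 proteasome contigs. It also held 11 of 437 splicing factors and 4 of 206 ribosomal proteins. Of all 63906 contigs 550 were in it, and only the 40954 read in all 9 fish could be. The named contigs closest to its mean were EXOSC8, a subunit of the RNA exosome, HSPA9, the mitochondrial HSP70, TOMM40, the channel of protein import into mitochondria, NPM1, fibrillarin and a tubulin beta chain.

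Summed markers of some other cells moved with the same 2 fish, in part through single contigs. Matched B cell and immunoglobulin contigs summed to 4968 CPM in SW1 fish 1 and 5691 CPM in FMC fish 2, below the 7650 to 13435 CPM of the others. Most of this sum was 1 IgM contig, contig 87. Without it the sums were 952 and 865 CPM, below the 1002 to 1251 CPM of the others, but contig by contig the list was mixed, with 18 of 55 lowest of their diet in both fish and 13 highest. Contigs of kidney tubule and glomerulus summed to 337 and 356 CPM in these 2 fish, above the 134 to 257 CPM of the others. Without aquaporin FA-CHIP (contig 29061), which was at 141 CPM in FMC fish 2, the sum was 303 CPM in SW1 fish 1 but 215 CPM in FMC fish 2, within the 123.1 to 239.8 CPM of the others. Red blood cell contigs summed to 7904 and 31756 CPM in the 2 fish, above the 2163 to 4259 CPM of the others. Most of these sums in both fish was hemoglobin subunit alpha-4. Without it the sum was 5963 CPM in FMC fish 2, but 1760 CPM in SW1 fish 1, little above the 701 to 1513 CPM of the others. None of the matched contigs of these lists was at 0 in every fish. Neutrophil granule contigs, at 17589 and 20645 CPM, lay within or just above the 13817 to 20056 CPM of the others. The part of any cell type in the values of the first group was not tested.

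**Figure D3:**
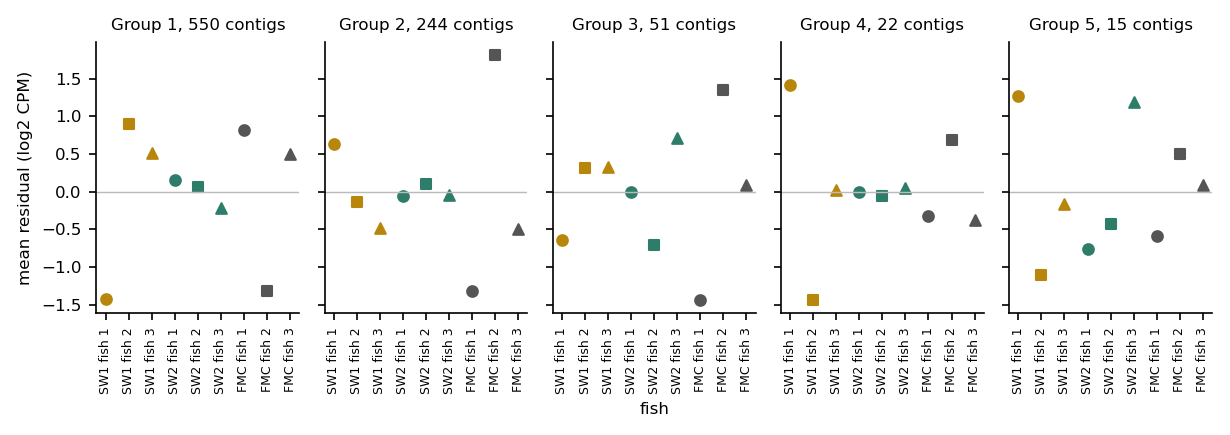
Mean residual (log2 CPM, y axis) of the contigs of each of the 5 groups that varied together, 1 panel per group and 1 point per fish, with colour for the diet. The group of 550 contigs is lowest in SW1 fish 1 (-1.43) and FMC fish 2 (-1.32), and the group of 244 contigs is highest in FMC fish 2 (1.82).

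Red blood cell genes had the largest median excess SD of the lists with 10 or more members, at 0.35, and in summed CPM FMC fish 2 was far above every other fish. Of 16 contigs, 12 had a larger SD than contigs of like abundance and 9 were highest of their diet in both FMC fish 2 and SW1 fish 1, where 22.8% of all contigs were. Hemoglobin subunit alpha-4 had 6145, 2968 and 1443 CPM in SW1 fish, 2514, 2429 and 1734 CPM in SW2 fish, and 1660.4, 25793 and 2747 CPM in FMC fish (SD 1.37). FMC fish 2 exceeded the next highest fish, SW1 fish 1, and the remaining 7 fish overlapped. Hemoglobin alpha-D, a minor alpha chain, had 58.4 CPM in FMC fish 2 and 3.73 to 9.51 CPM in the others (SD 1.19). The contig of largest SD in the list, hemoglobin subunit alpha-2 (contig 11058, SD 2.18), had another order. It had 113 counts in SW2 fish 1, 85 in FMC fish 2 and 2 to 37 in the others. Summed over all 21 matched contigs of the list, levels were 7904, 4167 and 2163 CPM in SW1, 3679, 3812 and 2569 CPM in SW2, and 2362, 31756 and 4259 CPM in FMC fish. Without FMC fish 2, the median excess SD of the list was 0.22.

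Other genes of the red cell line followed FMC fish 2. The erythroid 5-aminolevulinate synthase, the first enzyme of heme synthesis, had 635, 669 and 354 CPM in SW1, 402, 570.0 and 319 CPM in SW2, and 241, 3118 and 703 CPM in FMC fish (SD 1.14). Band 3, the chloride-bicarbonate exchanger of the red cell membrane, had 906, 368 and 239.5 CPM in SW1, 585, 663 and 387 CPM in SW2, and 317, 2277 and 632 CPM in FMC fish (SD 1.03). Both were taken as defining markers outside the rule for named contigs. Contigs named for the Rh type A ammonium transporter split, with SDs of 1.05 and 1.05 in contigs 1626 and 26430 and of 0.31 and 0.41 in contigs 1627 and 14681.

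The second group of contigs that varied together had 244 of all 63906 contigs, of which 150 were named. It held 6 of the 16 red blood cell contigs. Its mean residual was 0.63, -0.14 and -0.49 log2 units in SW1 fish, -0.06, 0.10 and -0.04 in SW2 fish, and -1.32, 1.82 and -0.50 in FMC fish. Nearest to its mean were Ankyrin-1, which anchors the red cell skeleton to the membrane, Ankyrin-3, the ubiquitin-conjugating enzyme UBE2R2, catalase, CHMP2A, a protein of membrane scission, and the nucleoside transporter SLC29A1. Ankyrin-1 had 30.9 CPM in FMC fish 2 and 2.35 to 6.38 CPM in the others, and catalase, which breaks down hydrogen peroxide, 31.2 CPM in FMC fish 2 and 1.66 to 5.82 CPM in the others. The hypoxia-inducible factor HIF1A (contig 28841) had 111 CPM in FMC fish 2 and 7.20 to 22.4 CPM elsewhere (SD 1.10), the transcription factor KLF2 had 149 CPM and 14.9 to 45.6 CPM (SD 1.06), and the water channel aquaporin FA-CHIP had 141 CPM and 10.6 to 34.0 CPM (SD 1.12).

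Thrombocyte genes moved less. Platelet glycoprotein IX, part of the receptor for von Willebrand factor in mammals, had 32.2 CPM in FMC fish 2 and 3.84 to 9.08 CPM in the others (SD 0.87), and glycoprotein Ib beta had 93.8 CPM in FMC fish 2 and 17.8 to 32.5 CPM in the others (SD 0.73). Coagulation factor XIII A chain, which cross-links fibrin, had 312, 244 and 327 CPM in SW1, 231, 309 and 248 CPM in SW2, and 253, 280.5 and 359 CPM in FMC fish (SD 0.23). The list of 20 contigs had a median excess SD of 0.02.

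The interrenal genes of steroid synthesis varied in an order of their own. Their median excess SD was 0.34, and 15 of 19 contigs were above like abundance. In summed CPM SW2 fish 3 was the highest fish and FMC fish 1 the lowest. Around the diet means FMC fish 2 was the highest, with a mean residual of 0.81 against 0.59 in SW2 fish 3, each contig in units of its SD. Without FMC fish 1 the median excess SD was 0.22. On the NCBI reference it was 0.03, over 4 contigs that matched the list there. StAR, which brings cholesterol into mitochondria (contig 395), had 727, 1153 and 1185 CPM in SW1 fish, 1363, 863 and 2042 CPM in SW2 fish, and 245.6, 1316 and 556 CPM in FMC fish (SD 0.82). 3-beta-HSD, which makes progesterone from pregnenolone, had 234, 501 and 466 CPM in SW1, 569.8, 369.6 and 941 CPM in SW2, and 108, 609 and 296 CPM in FMC fish (SD 0.89). Steroid 21-hydroxylase had 199, 396 and 414 CPM in SW1, 619, 312 and 731 CPM in SW2, and 95.6, 508 and 230.2 CPM in FMC fish (SD 0.86). The fish fell in the same order by diet for 3-beta-HSD and the 21-hydroxylase except in SW1, where fish 2 and 3 changed places.

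Adrenodoxin, which carries electrons to the mitochondrial P450 enzymes, was at 337 CPM in SW2 fish 3 and 47.4 CPM in FMC fish 1 (SD 0.85), and steroid 17-alpha-hydroxylase at 231 CPM in SW2 fish 3 and 25.3 CPM in FMC fish 1 (SD 0.73). Cytochrome P450 11B (contig 13540), which completes cortisol, was highest in SW2 fish 1 at 125 CPM. It was at 97.5 CPM in SW2 fish 3 and 13.6 CPM in FMC fish 1 (SD 0.84). The StAR, 21-hydroxylase, adrenodoxin, 17-alpha-hydroxylase and contig 13540 values were taken as defining markers outside the rule for named contigs. A second StAR contig (contig 14472) had a different order, with 4.26, 77.9 and 45.3 CPM in SW1, 44.0, 73.8 and 61.5 CPM in SW2, and 12.99, 27.0 and 31.2 CPM in FMC fish (SD 1.34), so that SW1 fish 1 was lowest. A contig of the cholesterol side-chain cleavage P450 (contig 16699), which catalyses the first step, stayed between 18.2 and 26.6 CPM (SD 0.19). Another contig of the same enzyme (contig 16700) had 83.8 CPM in SW2 fish 3 and 9.99 CPM in FMC fish 1, its highest and lowest values (SD 0.69).

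The third group of contigs that varied together had 51 of all 63906 contigs, of which 32 were named. It held 1 of the 19 interrenal contigs, 3-beta-HSD, and 3 of the 92 chaperones. Its mean residual was -0.65, 0.31 and 0.33 log2 units in SW1, -0.01, -0.71 and 0.72 in SW2, and -1.44, 1.35 and 0.09 in FMC fish. Its closest members were 3-beta-HSD, the potassium channel KCNK6, the RNA-binding protein TIAR, AKR1D1, a reductase that inactivates steroid hormones, ALDH6A1, an enzyme of valine breakdown, and the folate receptor FOLR1. TIAR had 87.8, 173 and 178 CPM in SW1, 173, 109 and 346 CPM in SW2, and 38.3, 248 and 83.3 CPM in FMC fish (SD 0.98), which is the order of 3-beta-HSD within SW2 and FMC. The chromaffin list held 1 contig that passed the filter, PNMT, which makes adrenaline, with 10.5, 1.95 and 3.40 CPM in SW1, 10.9, 3.60 and 4.62 CPM in SW2, and 1.22, 4.52 and 2.23 CPM in FMC fish (SD 0.97). The highest fish for PNMT were SW1 fish 1 and SW2 fish 1, unlike for 3-beta-HSD.

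**Figure D4:**
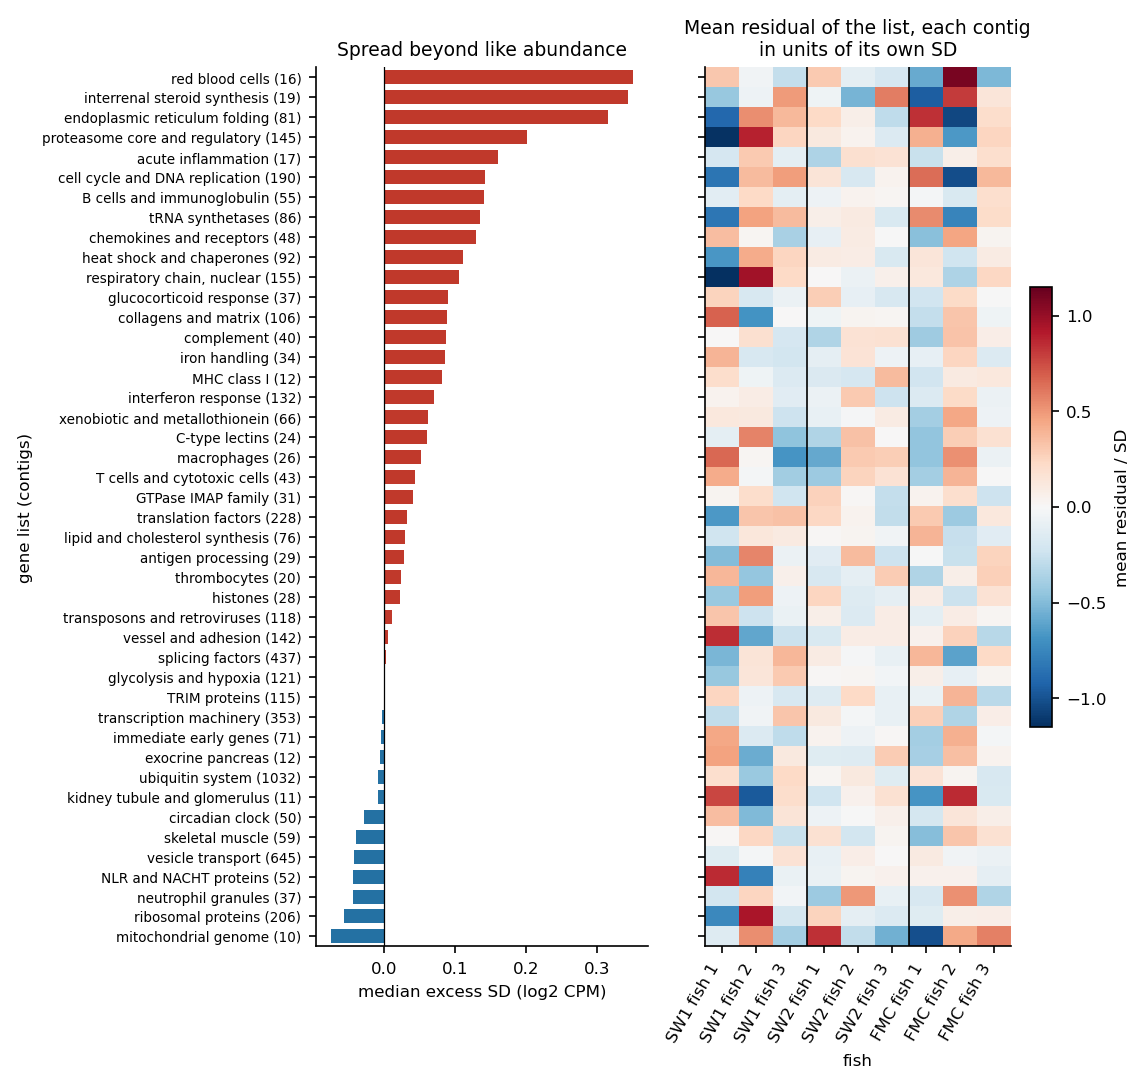
Left, median excess SD (log2 CPM) of the 44 gene lists with 10 or more contigs, with the number of contigs in parentheses; right, mean residual of each list in every fish, each contig in units of its own SD, with red above and blue below the diet mean. ER folding, proteasome and tRNA ligase lists are low in SW1 fish 1 and FMC fish 2, the red blood cell list is high in FMC fish 2, and the interrenal list is low in FMC fish 1.

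Inflammatory genes included several of the widest contigs that were read in all 9 fish. Serum amyloid A-5, an acute phase protein, had 16.5, 802 and 244.8 CPM in SW1 fish, 328, 748 and 579 CPM in SW2 fish, and 194, 42.4 and 722 CPM in FMC fish (SD 2.06). SW1 fish 1 and FMC fish 2 were the lowest, and the highest fish of each diet lay between 722 and 802 CPM. The acute inflammation list had a median excess SD of 0.16, and 13 of 17 contigs were above like abundance, but only 4 of 17 were lowest in both SW1 fish 1 and FMC fish 2. Without SW2 fish 2 its median excess SD was 0.08.

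Other inflammatory genes followed that order or another. TNFRSF11B, osteoprotegerin, a decoy receptor of the TNF family, had 11.7, 358 and 189 CPM in SW1, 108, 304 and 164 CPM in SW2, and 77.8, 9.51 and 143 CPM in FMC fish (SD 1.96). IRG1, which makes itaconate in activated macrophages, had 0.709, 15.8 and 12.7 CPM in SW1, 6.21, 23.5 and 13.1 CPM in SW2, and 6.74, 1.31 and 7.93 CPM in FMC fish (SD 1.64). In both, SW1 fish 1 and FMC fish 2 were the lowest of the 9 and SW1 fish 2 and SW2 fish 2 the highest. Hepcidin, the hormone that limits iron export, had 1.21, 34.4 and 2.53 CPM in SW1, 9.21, 6.35 and 8.14 CPM in SW2, and 3.98, 1.78 and 9.94 CPM in FMC fish (SD 1.57), with SW1 fish 2 alone at the top. Haptoglobin, which binds free hemoglobin, had 0.780, 5.73 and 5.75 CPM in SW1, 8.49, 7.52 and 20.5 CPM in SW2, and 1.54, 1.43 and 10.3 CPM in FMC fish (SD 1.32).

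Chemokines and their receptors had a median excess SD of 0.13, with 38 of 48 contigs above like abundance. CXCL13, which attracts B cells, had 0.497, 70.9 and 18.7 CPM in SW1, 13.4, 11.3 and 5.42 CPM in SW2, and 6.41, 0.713 and 9.16 CPM in FMC fish (SD 2.28). CCL19, which attracts T cells and dendritic cells, had 39.4, 506 and 189 CPM in SW1, 105, 308 and 134 CPM in SW2, and 108, 24.5 and 131 CPM in FMC fish (SD 1.40). Both were lowest in SW1 fish 1 and FMC fish 2. Over the list the direction was the other way, since 25 of 48 contigs were highest of their diet in both fish and 8 were lowest.

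C-type lectins did not follow SW1 fish 1 and FMC fish 2 as a list. Of 24 contigs, 6 were lowest in both fish (22.1% of all contigs were) and 5 highest (22.8% of all contigs). Their mean residual, each contig in units of its SD, was -0.12, 0.57 and -0.46 in SW1 fish. It was -0.35, 0.34 and 0.01 in SW2 fish, and -0.46, 0.28 and 0.17 in FMC fish. A contig of CLEC4E (contig 11477), a receptor for microbial and cell debris glycolipids, had 2.55, 38.97 and 18.4 CPM in SW1, 24.7, 31.0 and 17.5 CPM in SW2, and 13.2, 5.23 and 19.9 CPM in FMC fish (SD 1.29). CLEC4C had a different order, with 84.4 CPM in SW2 fish 2 against 8.59 and 8.14 CPM in SW2 fish 1 and 3 (SD 1.16). Among metabolic genes, SDS, serine dehydratase, which turns serine into pyruvate, had 3.83, 239.7 and 99.9 CPM in SW1, 86.5, 249 and 100.05 CPM in SW2, and 71.3, 3.69 and 72.2 CPM in FMC fish (SD 2.33). TFRC, the transferrin receptor of iron uptake, reached 754 CPM in SW2 fish 2 and lay between 76.9 and 381 CPM in the others (SD 0.95).

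**Figure D5:**
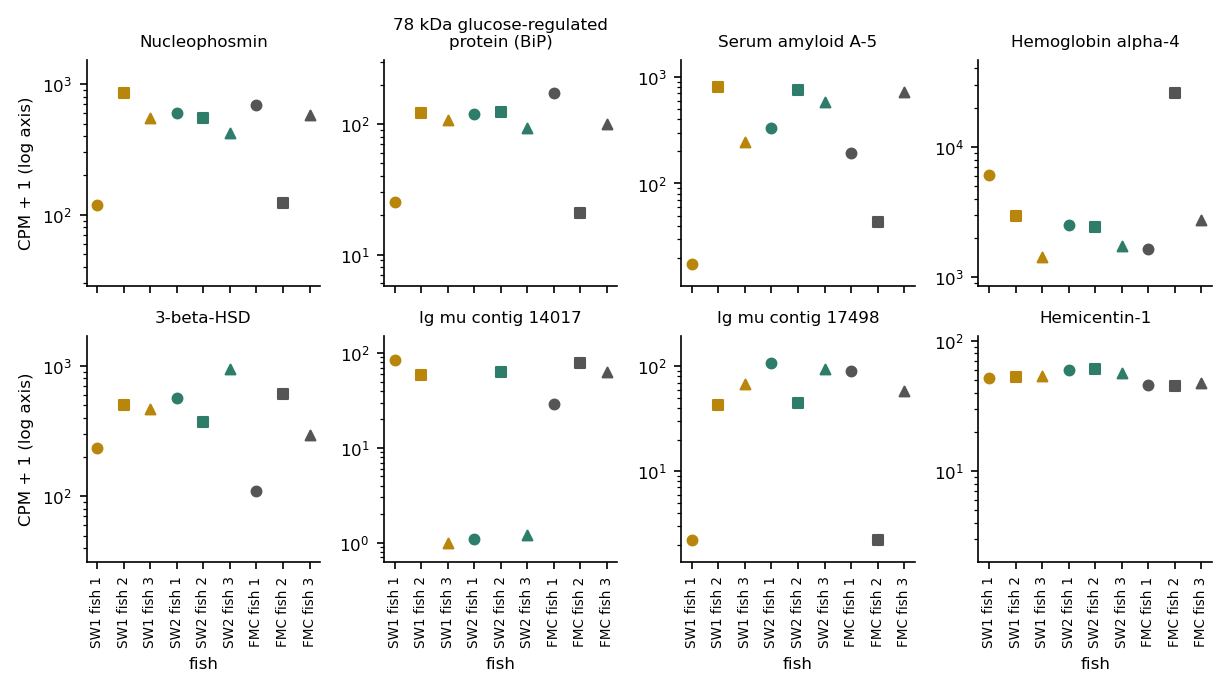
CPM plus 1 (log y axis) of 8 contigs in each of the 9 fish, 1 panel per contig and 1 point per fish, with colour for the diet. Nucleophosmin, BiP and serum amyloid A-5 are lowest in SW1 fish 1 and FMC fish 2, hemoglobin alpha-4 is highest in FMC fish 2, 3-beta-HSD is lowest in FMC fish 1, the 2 Ig mu contigs replace each other, and hemicentin-1 stays between 44.2 and 59.5 CPM.

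White blood cell markers varied less than red cell and interrenal markers. Neutrophil granule contigs had a median excess SD of -0.04, with 16 of 37 above like abundance. Myeloperoxidase, the granule enzyme that makes hypochlorite, had 3794, 2618 and 3551 CPM in SW1, 2446, 2860.4 and 3909 CPM in SW2, and 3166, 3995 and 3778 CPM in FMC fish (SD 0.28). CYBA, the light chain of the NADPH oxidase cytochrome, was among the steadiest abundant contigs, between 279 and 355 CPM (SD 0.11). An MMP9 contig (contig 20543), a matrix protease stored in neutrophils, varied more, with 26.2, 7.95 and 15.5 CPM in SW1, 47.4, 50.2 and 12.7 CPM in SW2, and 9.90, 23.9 and 8.15 CPM in FMC fish (SD 0.94). Contig 26409 of the same name, at a mean of 24.8 CPM, had an SD of 0.76. The more abundant MMP9 contigs 2749, 4726, 6793 and 3914, at means of 121 to 180 CPM, had SDs of 0.25 to 0.39.

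Macrophage contigs had a median excess SD of 0.05. CSF1R, the receptor for the macrophage growth factor (contig 18196), had the largest SD of that list, 0.73, with 88.2, 29.3 and 27.99 CPM in SW1, 43.1, 37.7 and 48.4 CPM in SW2, and 24.9, 79.4 and 50.5 CPM in FMC fish. Here the highest fish were SW1 fish 1 and FMC fish 2. MARCO, a scavenger receptor of macrophages, lay between 554 and 1058 CPM (SD 0.23). T cell and cytotoxic cell contigs had a median excess SD of 0.04, those of MHC class II -0.04 and those of antigen processing 0.03.

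B cell and immunoglobulin contigs had a median excess SD of 0.14 and included contigs that replaced each other between fish. The most abundant Ig mu contig, the constant region of IgM (contig 87), had 4016, 12222 and 6648 CPM in SW1, 8821, 9574 and 8925 CPM in SW2, and 8764, 4826 and 7541 CPM in FMC fish (SD 0.53), and was taken as a defining marker outside the rule for named contigs. The lowest fish were again SW1 fish 1 and FMC fish 2. Contig 14017, a second contig of the same name, had 83.7, 58.3 and 0 CPM in SW1, 0.103, 61.7 and 0.201 CPM in SW2, and 27.9, 78.6 and 62.8 CPM in FMC fish (SD 3.80). Contig 17498, also of that name, had 1.21, 41.4 and 67.5 CPM in SW1, 107, 43.2 and 93.0 CPM in SW2, and 89.7, 1.19 and 57.2 CPM in FMC fish (SD 2.63). Where one of them was near 0 the other was high, and 4 fish had both above 20 CPM. The sum of both contigs was 84.9, 99.7 and 67.5 CPM in SW1, 108, 105 and 93.2 CPM in SW2, and 118, 79.8 and 119.9 CPM in FMC fish, with an SD of 0.26. Reads of near-identical copies can be divided between such contigs by the alignment, so their single values are uncertain.

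High counts in 1 fish with few or none in another fish of its diet were a common form of large spread. In 177 contigs, 72 of them named, a fish had 3 counts or fewer while another fish of the same diet had 50 or more, and 70 of the 100 contigs of largest SD were of this kind. Of the 177, 103 showed it within SW1, 48 within SW2 and 86 within FMC. The most frequent pattern was 3 counts or fewer in SW1 fish 2 alone, in 42 contigs. Next came 3 or fewer in FMC fish 2 alone, in 23, and in both SW1 fish 1 and FMC fish 2, in 10. FMC fish 2 had the smallest library, while SW1 fish 2 had the fewest contigs with 10 or more counts, 48752 against 54810 to 69007 in the other fish.

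The contig of largest SD overall (4.32) matched glutamate decarboxylase-like protein 1, an enzyme that removes the carboxyl group of amino acids. It had 0, 591 and 1 counts in SW1, 401, 0 and 198 counts in SW2, and 249, 0 and 0 counts in FMC fish. The same 4 fish, SW1 fish 2, SW2 fish 1, SW2 fish 3 and FMC fish 1, were the only ones with more than 3 counts in 9 contigs. A contig of GIMAP4 (contig 50650), a GTPase of lymphocyte survival, was read in these 4 fish, with 136, 169, 65 and 92 counts, and had 0 counts in the other 5 (SD 3.43). IL13RA2, a decoy receptor for interleukin-13 (contig 33251), had 438, 511, 199 and 197 counts in these 4 fish and 3 to 7 counts in the others (SD 3.31).

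Another pattern set SW1 fish 1 and FMC fish 2 at or near 0. A contig of truncated immunoglobulin T, the mucosal antibody class of fish (contig 1873), had 2, 126 and 462 counts in SW1, 526, 211 and 459 counts in SW2, and 530, 0 and 248 counts in FMC fish (SD 3.30). A contig matched to CtBP1 (contig 7774), a transcriptional corepressor, had 2, 142 and 400 counts in SW1, 474, 182 and 465 counts in SW2, and 508, 1 and 255 counts in FMC fish (SD 3.12). NUB1, which directs NEDD8 to the proteasome (contig 22102), had 0 counts in both fish and 23 to 184 in the others (SD 2.73). The Ig mu contig 17498 above had 17 and 10 counts in these 2 fish and 318 to 1105 in the others.

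Further contigs switched in other fish. GIMAP8 (contig 72239) had 1633, 651 and 1647 counts in SW1, 3, 735 and 3 counts in SW2, and 3, 449 and 11 counts in FMC fish (SD 3.21). A class I histocompatibility contig (contig 4641), a presenter of peptides to cytotoxic T cells, had 116, 28 and 0 counts in SW1, 241, 180 and 434 counts in SW2, and 0, 441 and 305 counts in FMC fish (SD 3.10). AANAT, the enzyme of melatonin synthesis (contig 39469), had 85 counts in SW1 fish 3, 106 in FMC fish 1, 747 in FMC fish 2 and 0 to 3 in the others (SD 3.02). Class I histocompatibility and GIMAP genes belong to families of similar copies, so a read may be placed on another copy. The paper also lists class I transcripts by allele, and fish may differ in the alleles they carry. Where contigs with the same protein name were summed, 6687 proteins with 2 or more contigs had a median SD of 0.31, against 0.41 for their single contigs. Of 21 such proteins with a contig of SD over 2, 15 had a sum with an SD under 1, and the median SD of the 21 sums was 0.46. A sum has more counts and averages over its contigs, so a smaller SD is likely in any case. Whether reads were placed on other copies, or fish carried different alleles, was not tested.

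SW2 fish 1 differed from the other SW2 fish in a few very wide contigs. A histone H4 contig (contig 64423) had 1.56, 2.61 and 1.83 CPM in SW1, 50.6, 1.27 and 1.31 CPM in SW2, and 3.65, 0.595 and 0.447 CPM in FMC fish (SD 1.90). Contigs of H2B and H2A had 46.2 and 29.8 CPM in SW2 fish 1 and at most 5.60 and 2.52 CPM in the others (SDs 1.76 and 1.74). Histones package DNA, and the list as a whole did not stand out, with a median excess SD of 0.02 over 28 contigs and an H1 contig at 18.7 to 25.003 CPM in all fish (SD 0.12). In the same fish, contig 80, matched to putative uncharacterized protein ART2, took 16.5% of all counts, against 0.395% to 1.44% in the others. In yeast the ART2 reading frame lies antisense to ribosomal RNA, and whether contig 80 is ribosomal RNA was not tested. Contig 80 was chosen after its values were seen. Whether it bears on the other values of SW2 fish 1 was not tested.

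The smallest groups of contigs set SW1 fish 1 against SW1 fish 2. The fourth group, 22 contigs, had mean residuals of 1.42, -1.44 and 0.02 log2 units in SW1, 0.00, -0.06 and 0.06 in SW2, and -0.32, 0.69 and -0.37 in FMC fish. Its closest named members were DDX17, an RNA helicase, TLR12, a Toll-like receptor, PTPRS, a receptor tyrosine phosphatase, ANKRD5, KLF13, a transcription factor, and INO80D, a subunit of a chromatin remodeller. PTPRS had 81.9, 7.56 and 14.04 CPM in SW1, 26.3, 20.9 and 27.7 CPM in SW2, and 16.2, 54.8 and 17.6 CPM in FMC fish (SD 1.17). The fifth group, 15 contigs, had 1.27, -1.11 and -0.17 log2 units in SW1, -0.76, -0.43 and 1.19 in SW2, and -0.59, 0.51 and 0.09 in FMC fish. DDB1, an adaptor subunit of ubiquitin ligases, was among its members, with 166, 28.9 and 63.6 CPM in SW1, 49.6, 46.7 and 162 CPM in SW2, and 51.7, 89.2 and 79.2 CPM in FMC fish (SD 0.96). SW1 fish 1 and SW2 fish 3 were the highest for DDB1, and the very long-chain acyl-CoA synthetase of the same group had 156 and 144 CPM in these fish and 24.6 to 74.6 CPM in the others.

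Lists that varied together were described by the correlation of their mean residuals over the 9 fish, each contig scaled by its SD. Among the 12 lists of largest median excess SD with 10 or more members, 12 of 66 pairs had an r over 0.8 and 4 had an r under -0.8. Over all 44 lists of that size, 85 of 946 pairs were over 0.8 and 93 under -0.8. The fish share libraries across lists, so these values carry no p. For most pairs named below, r is also given without the 2 fish farthest from the median of 1 list, with the diet means kept. It is also given without FMC fish 2 and SW1 fish 1, with the diet means computed again. ER folding and tRNA ligases had the closest relation (r = 0.99, rho = 0.93), and r was 0.96 without FMC fish 2 and SW1 fish 1, the farthest fish here, and 0.98 with the means computed again. Proteasome and chaperones had r = 0.97 (rho = 0.97), 0.88 without SW1 fish 1 and 2, the farthest, and 0.84 with the means computed again without FMC fish 2 and SW1 fish 1. Cell cycle and ER folding had r = 0.95 (rho = 0.90), 0.79 without FMC fish 2 and SW1 fish 1, and 0.69 with the means computed again. Some other pairs over 0.8 stayed high with the means computed again, such as tRNA ligases and chaperones at 0.95 (0.90 with all fish). With the means kept, that pair had 0.81 without SW1 fish 1 and FMC fish 2. Others fell further, to 0.25 for proteasome and cell cycle (0.87) and 0.28 for tRNA ligases and the respiratory chain (0.82). For chaperones and the respiratory chain r fell to 0.42 (0.94). With the means kept, r was 0.96 for proteasome and cell cycle without SW1 fish 1 and 2, the farthest. Without the same fish it was 0.71 for chaperones and the respiratory chain. For tRNA ligases and the respiratory chain it was 0.53 without SW1 fish 1 and FMC fish 2.

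Of the opposite relations under -0.8, only that of cell cycle and chemokines kept most of its size with the means computed again. With the means computed again without FMC fish 2 and SW1 fish 1, r was -0.39 for ER folding and chemokines (-0.88 with all fish). It was -0.23 for tRNA ligases and chemokines (-0.85) and -0.22 for red blood cells and cell cycle (-0.85). With the means kept, the relations with chemokines were -0.66 (ER folding) and -0.59 (tRNA ligases) without FMC fish 2 and SW1 fish 1. That of red blood cells and cell cycle was -0.63 without FMC fish 2 and FMC fish 1. Cell cycle and chemokines had r = -0.90 (rho = -0.85), -0.76 without FMC fish 2 and SW1 fish 1, and -0.83 with the means computed again. Red blood cells and ER folding had r = -0.77 (rho = -0.63), -0.43 without FMC fish 2 and FMC fish 1, the farthest, and 0.11 with the means computed again without FMC fish 2 and SW1 fish 1, so that this relation rested on these fish. The interrenal list was related to red blood cells with r = 0.44 (rho = 0.25), and this was -0.51 without FMC fish 2 and FMC fish 1 and -0.05 with the means computed again without FMC fish 2 and SW1 fish 1. Acute inflammation and ER folding had r = -0.07 (rho = -0.07), although serum amyloid A-5 itself was low in the same 2 fish. Between the groups of contigs, r was -0.85 for the largest and the second and -0.31 for the largest and the one with 3-beta-HSD.

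The lists of lowest median excess SD were those of the mitochondrial genome, ribosomal proteins, neutrophil granules, NLR and NACHT proteins and vesicle transport. Mitochondrial genome contigs had a median excess SD of -0.07, with 1 of 10 above like abundance. ND5, a subunit of complex I encoded in mitochondrial DNA, had 20126, 24619.7 and 22151 CPM in SW1, 21737, 18918 and 18554 CPM in SW2, and 14428, 19746 and 20068 CPM in FMC fish (SD 0.19). Ribosomal proteins had a median excess SD of -0.06, with 68 of 206 contigs above like abundance, and a median SD of 0.45 within SW1, 0.18 within SW2 and 0.17 within FMC. RPL6, of the large ribosomal subunit, lay between 262 and 341 CPM (SD 0.12). These small values moved with single fish. The median excess SD was -0.03 for the mitochondrial genome without SW1 fish 2, -0.02 for ribosomal proteins without FMC fish 2, 0.00 for neutrophil granules without SW1 fish 1 and -0.02 for NLR and NACHT proteins without FMC fish 2. With SW1 fish 1 and FMC fish 2 both left out, it was 0.00 for the mitochondrial genome and 0.01 for ribosomal proteins.

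NLR and NACHT proteins, which include sensors of bacterial products, had a median excess SD of -0.04 over 52 contigs, with the widest range within SW1. Their mean scaled residual was 0.86, -0.78 and -0.08 in SW1 fish and lay between -0.10 and 0.05 in SW2 and FMC fish. Vesicle transport, the largest of these lists, had 251 of 645 contigs above like abundance (median excess SD -0.04), and splicing factors 219 of 437 (0.00). Complement had a median excess SD of 0.09, but its members were apart. C6, part of the membrane attack complex, lay between 1042 and 1564 CPM (SD 0.16), and C1QL2, a C1q-like protein, between 51.1 and 450.3 CPM (SD 1.03), with FMC fish 2 the lowest and SW1 fish 2 the highest.

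Among named contigs of 20 CPM or more, the smallest SDs were 0.04 to 0.06. PRCC, a nuclear protein linked to splicing, had 20.7, 20.6 and 21.01 CPM in SW1, 24.8, 23.1 and 24.3 CPM in SW2, and 21.8, 21.6 and 22.8 CPM in FMC fish (SD 0.04). Hemicentin-1, a matrix protein, had 50.6, 51.2 and 52.4 CPM in SW1, 58.9, 59.5 and 55.8 CPM in SW2, and 44.4, 44.2 and 46.7 CPM in FMC fish (SD 0.04). Biotin-protein ligase, which attaches biotin to carboxylases, lay between 30.7 and 35.7 CPM (SD 0.05), TMEM63A, an ion channel, between 69.4 and 77.9 CPM (SD 0.05), pinin, a splicing-associated protein, between 26.5 and 31.7 CPM (SD 0.06), SNAP23, a SNARE protein of secretion, between 73.8 and 84.1 CPM (SD 0.06), and mitofusin-2, which fuses mitochondria, between 26.2 and 33.4 CPM (SD 0.06). A Tc1 transposase contig was as steady, between 37.3 and 49.3 CPM (SD 0.06).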

How the data were processed

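Head kidney RNA of 9 fish, 3 per diet, was sequenced with a TruSeq RNA kit. The authors aligned the reads with TopHat2 2.0.5 to contigs assembled de novo from all reads and to S. salar cDNA from NCBI, removed secondary alignments with SAMtools 0.1.18 and counted reads per contig with HTSeq 0.5.3p9, and the deposited values are these raw counts per contig and fish, neither normalized nor pooled. The deposited tables also hold the authors' own fold changes and p-values for each seaweed diet vs. FMC, which were not used. Contigs carry the name of their best database match, often in another species. They were not placed on a genome here.

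The tables were joined by contig. TMM factors and log2 CPM (prior count 2) came from edgeR 4.0.16 under R 4.3.3. Residuals are log2 CPM minus the diet mean, and the SD has 6 degrees of freedom. The deviance of a Poisson model tested spread beyond counting, edgeR's quasi-likelihood F test differences between diets, both with Benjamini-Hochberg adjustment over 63906 contigs, and exact permutation tests over fish the distances. Total counts ranged from 8259299 to 12228633 per fish. Counting alone, approximated without the prior count, gives an SD of 0.53 in the lowest abundance bin and 0.05 in the highest. DESeq2 1.42.0 was an alternative. The steps were tested on simulated data.

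Contigs were named by rule: the 15 of largest SD with a protein name and a mean of 5 CPM or more, the same among those with 10 or more counts in all 9 fish, the 15 of smallest SD at 20 CPM or more, up to 3 widest and 1 steadiest of each list at 2 CPM or more, and up to 6 nearest the mean of each group. Defining cell type markers and contigs said to be chosen after their values were seen are exceptions. Gene lists were matched by words in the descriptions. Members and lists were chosen with earlier results of these data known. Fish numbers recur in every diet, but residuals of same-numbered fish correlated between -0.42 and 0.30, so fish were not paired.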

Additional observations from a re-analysis of the deposited data

Results flagged for a closer look

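In SW2 fish 1 the 100 most abundant contigs took 33.1% of all counts, against 19.9% to 24.7% in the other 8 fish. The gap to the next fish was 0.634 of the whole range, above the critical value of Dixon's test for 9 samples. It was 1 of 49 measures looked at in this way, and chance alone would pass about 1 in 20. Contig 80, matched to putative uncharacterized protein ART2, took 16.5% of the counts of that fish. Whether this contig is ribosomal RNA was not tested. Without it the 100 most abundant contigs took 19.96% in SW2 fish 1 and 19.0% to 24.2% in the others.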

How the results depend on the processing

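The count of contigs that varied beyond counting noise (40778) was 40601 with RLE size factors, 44635 with no filter, 36434 with libraries thinned to the smallest and 11784 of 17495 contigs on the NCBI reference, where fewer contigs were tested, and 33213 to 40175 with 1 fish left out. The count of contigs that differed between diets (1) was 2 with no filter, 67 with DESeq2, and 1 to 3 with 1 fish left out (2 without SW1 fish 2 and 3 without SW2 fish 2). With the fish number as a replicate block these counts were 36230 and 1, the median SD was 0.43 and 14 lists had a median excess SD over 0.1. The numbers do not pair the fish.

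The median SD (0.43) was 0.39 to 0.44 with 1 fish left out, and 11 of 44 lists with a median excess SD over 0.1 became 8 to 13. With libraries thinned to the smallest these values were 0.43 and 13. With SW1 fish 1 and FMC fish 2 both left out, the median SD was 0.33 and 7 lists were over 0.1. The first component then held 34.4% (51.9% with all fish, and 41.6% over contigs with 10 or more counts in at least 3 fish). Here 10 list pairs (16 with all fish) passed an r of 0.8 in size, some of them new. New were the interrenal list with tRNA ligases (-0.98, against -0.33 with all fish), ER folding (-0.93, -0.44) and chaperones (-0.87, -0.05). B cells with chemokines were also new (0.85, -0.15). The median excess SD was then -0.0107 for heat shock proteins and chaperones and -0.0153 for the respiratory chain. The cause was not tested. Leaving out 1 fish gave 49.9% to 57.6% on the first component and 14 to 23 pairs. Of the 11 lists, 9 stayed above 0 under every alternative, and of the 12 lists under 0, 1 stayed under 0.

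The distance of both seaweed diets minus FMC (-0.0552) ran from -0.119 to 0.0983 with 1 fish left out, with the sign turned without FMC fish 2, and the exact permutation p was 0.0179 without SW1 fish 1. A diet of 2 fish lies closer to its own mean by construction. With distances scaled for this, an alternative chosen after seeing the data, values ran from -0.179 to 0.0631, again turned without FMC fish 2. In the same scaling SW2 minus FMC ran from -0.261 to -0.0194, below 0 in each case, and SW1 minus FMC from -0.0964 to 0.146, below 0 without SW1 fish 1 (-0.0690), SW1 fish 2 (-0.0318), FMC fish 1 (-0.00287) or FMC fish 3 (-0.0964). Unscaled, SW1 minus FMC (0.0115) ran from -0.109 to 0.166 and was negative without SW1 fish 1 (-0.109), SW1 fish 2 (-0.0839) or FMC fish 3 (-0.00528). SW2 minus FMC (-0.122) ran from -0.181 to 0.0310, and was positive only without FMC fish 2. Low counts limit what single rare contigs can show.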

Other observations

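Collagens and other matrix genes were highest of their diet in both SW1 fish 1 and FMC fish 2 for 47 of 106 contigs, where 22.8% of all contigs were, and the collagen alpha-1(I) chain, the main fibre-forming collagen, had 14.5, 3.39 and 5.14 CPM in SW1, 9.94, 8.79 and 9.04 CPM in SW2, and 8.28, 23.7 and 7.15 CPM in FMC fish (SD 0.81). Vessel and adhesion genes were highest in both fish for 58 of 142 contigs. A contig of snRNP Sm D3, a core protein of spliceosomal particles, had 77.0 CPM in SW1 fish 2 and 113 CPM in FMC fish 1 against 5.11 to 11.6 CPM in the other 7 fish (SD 1.77). Retinol-binding protein 4, the carrier of vitamin A, had 76.0 CPM in FMC fish 2 and 1.06 to 8.99 CPM in the others (SD 1.55).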
